A study of Mus musculus with 2 samples.

Results

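Chromatin accessibility at 9 genes for interferon and interleukin receptor subunits was described in bone marrow-derived macrophages (BMDMs) of the mouse, which differentiate in culture when marrow cells are kept in M-CSF. The genes were Ifnar1, Ifnar2, Ifngr1, Ifngr2, Il10ra, Il10rb, Il4ra, Il6ra and Il6st. They were chosen by name from earlier results of the same data, and their peaks were selected by position. A peak was given to a gene when an end of that gene was the protein-coding gene end nearest to the peak's summit and lay within 100 kb. This gave 36 of the 37725 peaks of the R848 list and 27 of the 77060 peaks of the untreated list, or 63 of 114785 peaks in all. The R848 group was 1 library of wild-type BMDMs exposed for 2 h to 100 ng/ml of R848, a small-molecule agonist of Toll-like receptor 7. The untreated group was 1 library of wild-type BMDMs at 0 h. Both cultures had been grown with 20 ng/ml M-CSF, and the strain, sex, age and number of animals are not given in the labels. ATAC-seq marks open DNA by letting a transposase insert adapters into it, and a peak is a site where insertions pile up above background. There was 1 library per group, so no difference between the groups could be tested. Peaks without an overlapping peak in the other list are called R848-only or untreated-only.

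Cytokine receptors of this kind have no enzyme of their own. Each is a pair or larger assembly of subunits whose cytoplasmic tails hold Janus kinases, and ligand binding lets these kinases phosphorylate STAT transcription factors. In macrophages, interferon-gamma signalling primes antimicrobial functions, type I interferon induces antiviral genes, interleukin-10 restrains inflammatory cytokine output, interleukin-4 drives alternative activation, and interleukin-6 acts through a shared subunit called gp130.

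Every one of the 9 genes had an R848 peak within 1 kb of a gene end, and 6 of the 9 had an untreated peak there. Over all 21887 protein-coding genes, 33.8% had an R848 peak and 26.7% an untreated peak within 1 kb of an end. The 3 genes with an R848 peak and no untreated peak at an end were Il4ra, Il10rb and Il10ra, and 12.9% of protein-coding genes were of this kind. Because the members were chosen with earlier counts known, these shares describe them and support nothing further.

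The promoter sequences of 3 members are given here, Il4ra for its R848-only start peak and Ifngr1 and Ifnar1 for the strongest start peaks present in both lists. They come from RefSeq, run from 250 bases before to 50 bases after the annotated start of transcription, and are printed 5′ to 3′ along the gene on mm10. The Il4ra promoter (chr7:125552021-125552320, plus strand) lay under an R848-only peak along 294 of its 300 bases and under no untreated peak. Capitals mark the octamer-like letters ATGNAAAT and the Sp1 letters GGGCGG.
Il4ra: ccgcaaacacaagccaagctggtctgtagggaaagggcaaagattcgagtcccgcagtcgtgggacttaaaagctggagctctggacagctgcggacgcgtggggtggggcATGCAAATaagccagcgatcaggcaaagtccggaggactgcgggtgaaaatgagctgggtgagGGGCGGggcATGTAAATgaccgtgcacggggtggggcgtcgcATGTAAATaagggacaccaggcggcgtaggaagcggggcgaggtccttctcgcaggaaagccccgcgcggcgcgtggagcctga
The Ifngr1 promoter (chr10:19591699-19591998, plus strand) and the Ifnar1 promoter (chr16:91484965-91485264, plus strand) lay whole under a peak of each list. Capitals mark GGGCGG on either strand and, in Ifnar1, also the ETS letters CCGGAAG.
Ifngr1: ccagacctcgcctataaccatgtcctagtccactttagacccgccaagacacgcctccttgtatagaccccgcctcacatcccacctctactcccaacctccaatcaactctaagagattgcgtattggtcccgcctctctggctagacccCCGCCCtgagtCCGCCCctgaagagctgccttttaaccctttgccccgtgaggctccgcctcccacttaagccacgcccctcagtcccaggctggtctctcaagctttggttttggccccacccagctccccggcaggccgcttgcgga
Ifnar1: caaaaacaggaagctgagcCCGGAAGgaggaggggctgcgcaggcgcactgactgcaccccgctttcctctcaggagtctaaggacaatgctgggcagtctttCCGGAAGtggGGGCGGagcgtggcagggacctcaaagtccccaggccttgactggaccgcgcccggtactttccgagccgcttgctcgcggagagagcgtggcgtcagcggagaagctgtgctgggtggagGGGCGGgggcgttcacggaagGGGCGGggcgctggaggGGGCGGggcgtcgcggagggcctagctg

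The Il4ra promoter held 3 matches to ATGNAAAT, 1 of them the canonical octamer ATGCAAAT and 2 reading ATGTAAAT, all on the coding strand and all under the R848-only peak. They lay 139 to 132, 67 to 60 and 34 to 27 bases before the start of transcription. At least 1 such match was found in 5.67% of the 32851 promoters of the table, and 3 or more in 15 promoters (0.0457%). This motif was chosen after the sequence had been read. None of the other 6 member promoters held a match.

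Promoter sequence was at hand for 7 of the 9 genes, all but Il10ra and Il10rb. Their GC content ran between 57.0% at Ifnar2 and 74.3% at Ifngr2, against a median of 52.7% over all promoters. Both strands were searched for each motif, and matches were counted where they overlapped each other. Sp1 letters GGGCGG were found in 6 of 7 promoters, against 35.7% of all promoters. Ifnar1 and Ifngr2 held 4 matches each, and 5.49% of all promoters held at least 4. The ETS letters CCGGAAG were found in 1 of 7 promoters, that of Ifnar1, against 8.86% of all promoters. Ifnar1 held 2 matches, and 1.48% of all promoters held at least 2. The NF-kB letters GGNNTTTCC were found in Ifngr2 and in Il4ra, 1 match each, against 5.82% of all promoters. The Il4ra match lay 20 to 28 bases after the start of transcription, inside the R848-only peak. The Ifngr2 match lay 75 to 67 bases before the start of that gene, under a peak of each list. GAS letters TTCNNNGAA, one form of a STAT site, were found once each in Ifnar1 and Ifnar2 (8.30% of all promoters). The AP-1 letters TGANTCA (7.81%), the interferon response letters GAAANNGAA (8.56%) and TATAAA (13.6%) were in none of the 7 windows. CCAAT was in Ifngr1, Ifngr2 and Il6st (37.4%). A match describes letters and is not a measured binding site.

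Of the 36 R848 peaks, 22 were R848-only (61.1%, 95% Wilson interval 44.9 to 75.2%), against 69% of all R848 peaks. Of the 27 untreated peaks, 14 were untreated-only, against 84.7% of all untreated peaks, and 13 were overlapped by an R848 peak. That share, 48.1% (30.7 to 66.0%), compares with 15.3% over all untreated peaks. Both intervals cover counting error over peaks only, and a difference from the whole lists was not tested. Overlapped peaks were more common at gene ends than elsewhere throughout the genome, so the counts were also read by position. Within 1 kb of a gene end, 6 of 12 member R848 peaks were R848-only, against 41.5% of all such R848 peaks, and 6 of 6 member untreated peaks were overlapped, against 75.3%. Farther out, 16 of 24 member R848 peaks were R848-only, against 76.6%, and 7 of 21 member untreated peaks were overlapped, against 11.9%. R848-only peaks numbered 2.44 per member gene, against 0.885 over all protein-coding genes, and untreated-only peaks 1.56 per member gene, against 1.74. Per gene, the median member had 2 R848-only peaks and 1 untreated-only peak, and the median protein-coding gene had 0 R848-only peaks and 1 untreated-only peak. An R848-only peak was found at 9 of 9 members, against 47.2% of protein-coding genes, an untreated-only peak at 6 of 9, against 56.9%, and a peak in both lists at 6 of 9, against 34.4%.

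**Figure D1:**
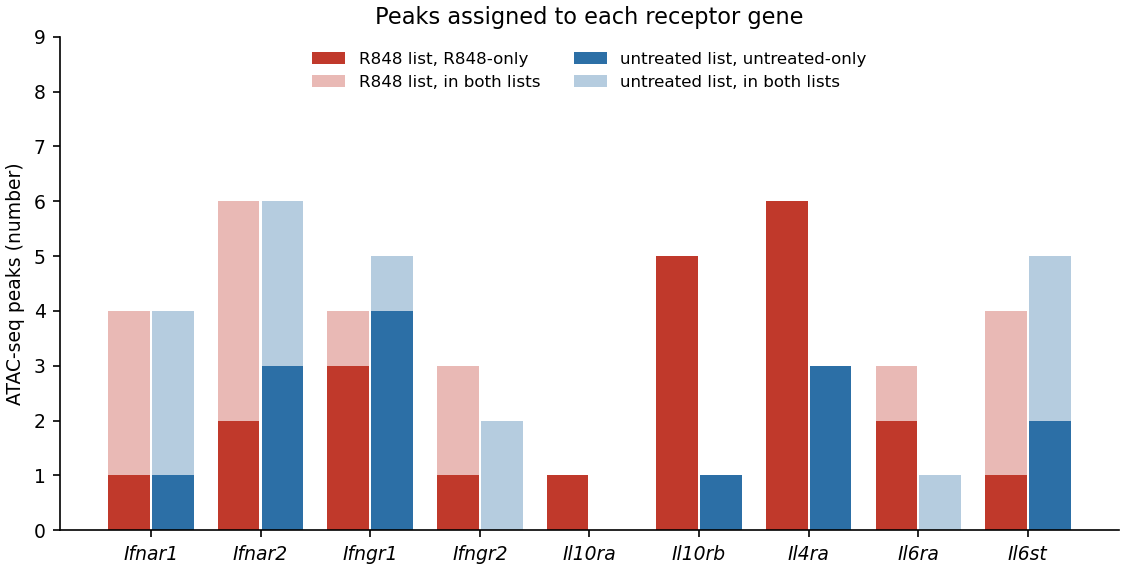
Number of ATAC-seq peaks given to each receptor gene (y axis), with the R848 list left of the untreated list for each gene on the x axis; dark parts of the bars are peaks found in that list alone and pale parts are peaks overlapping a peak of the other list. Il4ra and Il10rb have 6 and 5 R848 peaks, all R848-only, as are 69% of all R848 peaks, while Ifnar1 and Il6st share 3 peaks each between the lists.

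Depth limits single peaks in both libraries. Values are given as tags at the summit, the pileup solved from the deposited fold and p, and as the deposited fold, which is the authors' value of pileup over background within one library. The median peak held 8 tags in the R848 list and 7 tags in the untreated list, and the smallest called pileup was 5 and 4 tags. Background was 1.36 tags in the R848 library and 0.968 tags in the untreated library. Of the member peaks, 24 of 36 in the R848 list and 23 of 27 in the untreated list had a q under 0.05. At the background level an untreated peak passed that q with fewer tags than an R848 peak did, so q is not matched between the lists. Intervals given for tags cover counting error only.

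All 12 macrophage marker genes checked had a peak assigned, as did 4 of 8 T cell, 5 of 6 B cell and 7 of 8 neutrophil markers. At a gene end, 9 of the 12 macrophage markers had a peak in the R848 list and 6 in the untreated list. Over all protein-coding genes the gene-end shares were 33.8% and 26.7%. A gene-end peak was found at 1 of 8 T cell markers in each list and at 0 and 1 of 6 B cell markers in the R848 and untreated lists. For neutrophil markers it was found at 3 of 8 genes in the R848 list and 2 of 8 in the untreated list. The part of other cells in the results was not tested. No member is X-linked; X held 820 R848 and 4556 untreated peaks.

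Il4ra encodes the alpha chain that binds interleukin-4 and also serves the interleukin-13 receptor. Its 6 R848 peaks and 3 untreated peaks did not overlap at all. Over the whole lists, 69% of R848 peaks and 84.7% of untreated peaks had no counterpart. The strongest R848 peak of Il4ra covered the start of the gene on chromosome 7 (125552027 to 125552476). Its summit stood 9 bp into the gene, and it held 17 tags (95% Poisson interval 9.90 to 27.2) at a fold of 6.12. The nearest untreated peak lay 9963 bp away from it. At the median tag ratio of peaks in both lists, 1.33 R848 tags per untreated tag, such a site would have held 12.8 tags in the untreated library, where 4 tags could be called at background level. Of the 2069 R848 peaks of 13 to 20 tags within 1 kb of a gene end, 21.9% had no untreated counterpart.

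The other 5 R848 peaks of Il4ra were weaker, with 6 to 11 tags. A pair had summits inside the gene, 3268 and 9194 bp from its start, with 11 and 7 tags and folds of 3.87 and 3.39. The exon or intron they fall in cannot be read from the gene table used here. Another peak had its summit 4 bp beyond the far end of the gene, with 6 tags and a q of 0.30, and a further one lay 1988 bp beyond that end with 8 tags. The sixth lay 8359 bp before the start with 8 tags. The 3 untreated peaks all lay before the gene, 10256, 19663 and 20474 bp from its start, with 6, 9 and 7 tags, and the strongest had a fold of 4.42. So all 3 untreated peaks lay upstream of the gene, as did 1 of the R848 peaks, 1749 bp from the nearest untreated peak, while the other 5 R848 peaks lay at the gene's ends, inside it or just beyond it. In all, 275 protein-coding genes (1.26%) had at least 6 R848-only peaks, and 7 genes, Il4ra included, had its combination of 6 R848-only, 3 untreated-only and 0 shared R848 peaks.

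The next gene along the chromosome, Il21r, encodes the interleukin-21 receptor. It had 3 R848-only peaks of 6 to 7 tags, all with a q above 0.05, and 2 untreated-only peaks of 7 and 5 tags. No peak of this pair of receptor genes overlapped between the lists. Over the genome, 86.6% of R848 peaks of 4 to 6 tags and 81.5% of those of 7 to 8 tags had no counterpart. In the untreated list these shares were 92.5% and 87.1%.

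**Figure D2:**
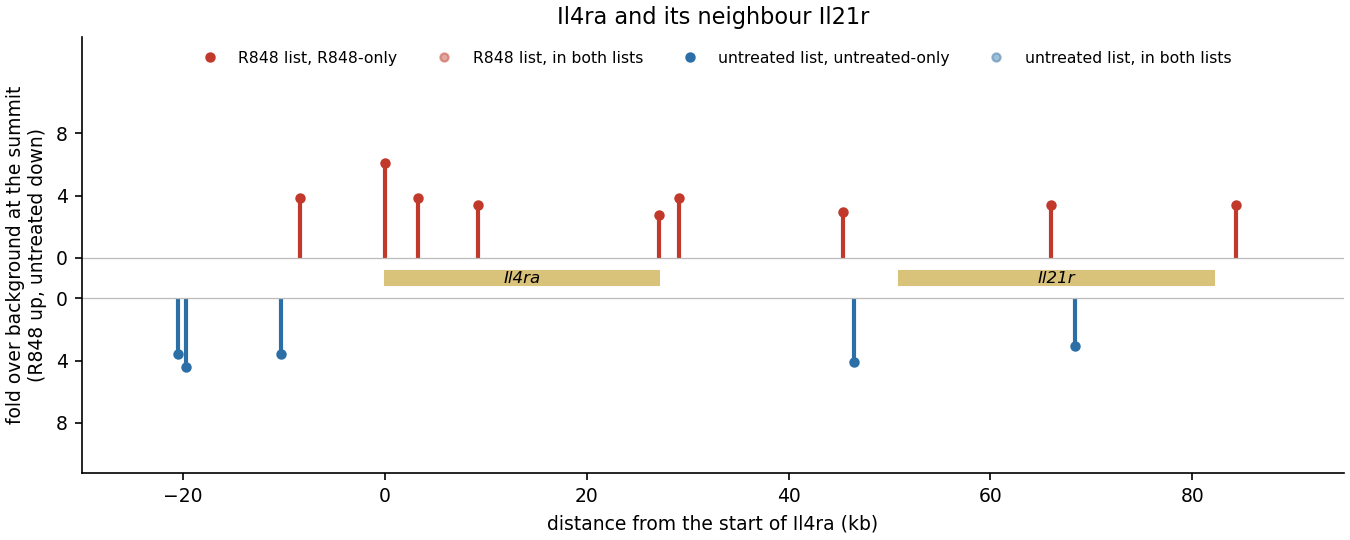
Map of Il4ra and its neighbour Il21r, with the distance from the start of Il4ra in kb on the x axis and the deposited fold at each summit on the y axis, R848 peaks above the genes and untreated peaks below them. No peak is present in both lists, as for 69% of all R848 peaks and 84.7% of all untreated peaks. The tallest R848 peak, with a fold of 6.12, stands at the start of Il4ra.

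The 2 interleukin-10 receptor genes are on different chromosomes. Il10ra encodes the chain specific to interleukin-10, and Il10rb encodes the accessory chain that the receptors for interleukin-22 and interferon-lambda also use. Il10rb had 5 R848-only peaks and 1 untreated-only peak. Over the whole lists, 69% of R848 peaks and 84.7% of untreated peaks likewise had no counterpart. The strongest R848 peak of Il10rb covered the start coordinate of the gene on chromosome 16 (91405697 to 91406239), and it held 14 tags (7.65 to 23.5) at a fold of 5.40. It lay 29295 bp from the nearest untreated peak, and its scaled equivalent in the untreated library would be 10.5 tags. Of all R848 peaks of 13 to 20 tags within 1 kb of a gene end, 21.9% had no untreated counterpart. The neighbouring gene Ifnar2 ends 567 bp before Il10rb starts, and the peak's summit stood in that gap, 82 bp from Il10rb. A further 3 R848-only peaks had summits inside Il10rb, 770, 9337 and 4932 bp from its nearer end, with 9, 9 and 6 tags. The fifth lay 21470 bp beyond the gene with 11 tags and a fold of 5.09. The lone untreated peak lay 9803 bp beyond the gene with 6 tags and a fold of 3.56. At least 5 R848-only peaks were found at 530 protein-coding genes (2.42%).

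By nearest end, Il10ra had a single peak in the 2 lists together, an R848 peak on chromosome 9 (45268905 to 45269224) with its summit 69 bp inside the higher-coordinate end of the gene. It held 6 tags, against 5 for the smallest pileup called in that list, with a fold of 2.73 and a q of 0.32. An equal site would hold 4.50 tags in the untreated library, close to the smallest pileup called there, 4 tags. So at this depth the missing untreated peak of Il10ra cannot be read as a difference between the groups.

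The gamma interferon receptor consists of Ifngr1, which binds the ligand, and Ifngr2, the signalling chain. Ifngr1 had the peak of highest fold among the 9 genes in each list, and both stood at its start. The R848 peak (chromosome 10, 19591454 to 19592127) held 32 tags (21.9 to 45.2) at an enrichment of 11.0-fold, and the untreated peak (19591640 to 19591999) held 17 tags (9.90 to 27.2) at 9.0-fold. The summits lay 35 bp apart. Relative to the median ratio over all shared peaks, the R848 to untreated tag ratio was 1.41 (exact interval 0.761 to 2.71), so this promoter could not be told apart from the typical shared peak. The other peaks of Ifngr1 held fewer tags than the start peak of their list and did not overlap. The 3 R848-only peaks held 5, 8 and 5 tags and lay 83447, 46057 and 21892 bp from the gene. The 4 untreated-only peaks held 12, 11, 10 and 5 tags and lay 52758, 51049, 47575 and 3643 bp from it. Among all peaks given to a gene but farther than 1 kb from its end, 76.6% of R848 peaks were R848-only. Of such untreated peaks, 11.9% were overlapped. The peak 83447 bp away was the farthest taken in by the 100 kb limit, with 5 tags and a fold of 2.54. No peak beyond the limit had a member as its nearest gene. Nearby on the same chromosome are the receptor genes Il22ra2, with 1 untreated-only peak and no R848 peak, and Il20ra, with 4 R848 and 14 untreated peaks, 3 in each list shared.

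Ifngr2 had 3 R848 peaks and 2 untreated peaks, and both untreated peaks were matched. The stronger shared site lay 12384 bp before the gene, not at its start, with 19 tags and 8.40-fold enrichment in R848 cells and 10 tags and 5.59-fold enrichment in untreated cells. Its summits were 1 bp apart. At the start of the gene the R848 peak held 12 tags with a fold of 4.14 and the untreated peak 7 tags with a fold of 4.04. The R848-only peak, with 10 tags, lay 1182 bp into the gene and 859 bp from the nearest untreated peak. Relative to the median shared peak, the tag ratios were 1.43 (0.630 to 3.43) at the distal site and 1.29 (0.467 to 3.85) at the start.

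The type I interferon receptor consists of Ifnar1 and Ifnar2, which bind interferon-alpha and interferon-beta together. Ifnar1 had 4 peaks in each list, and 3 of each were shared. Its strongest R848 peak, on chromosome 16 from 91484851 to 91485562, held 23 tags (14.6 to 34.5) at 9.52-fold, and the untreated peak there held 10 tags (4.80 to 18.4) at 5.59-fold. The summits were 33 bp apart, 137 and 170 bp before the start used in the promoter table, which lies inside the span of the gene table. The other shared sites held 15 R848 and 7 untreated tags 11.8 kb beyond the gene, and 11 R848 and 5 untreated tags 20.0 kb before it. All 3 sites thus had more tags in the R848 library, with relative tag ratios of 1.73, 1.61 and 1.65, and every one of these intervals included 1. The R848-only peak of 10 tags and the untreated-only peak of 7 tags lay 1362 bp apart, both upstream of the gene.

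Ifnar2 had 6 peaks in each list and no clear strong peak at its start. The start peak held 7 tags at 3.33-fold in R848 cells and 6 tags at 3.56-fold in untreated cells. The RefSeq long non-coding RNA gene Gm36587 spans this start, so the peak cannot be given to one of the 2 genes. Another site, 5821 bp before the gene, held 7 tags in each list with summits 2 bp apart. Farther upstream, R848 peaks of 14 and 17 tags both overlapped a single wider untreated peak of 9 tags. The strongest untreated-only peaks of all 9 genes were found here as well. They lay 30285 and 29635 bp before Ifnar2 (91342381 to 91342831 and 91342984 to 91343375), with 19 and 15 tags and folds of 6.99 and 5.80, and no R848 peak overlapped them. Over the genome, 49.6% of untreated peaks of 13 to 20 tags were untreated-only. The R848-only peaks of Ifnar2 held 6 and 7 tags, both with a q above 0.05.

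**Figure D3:**
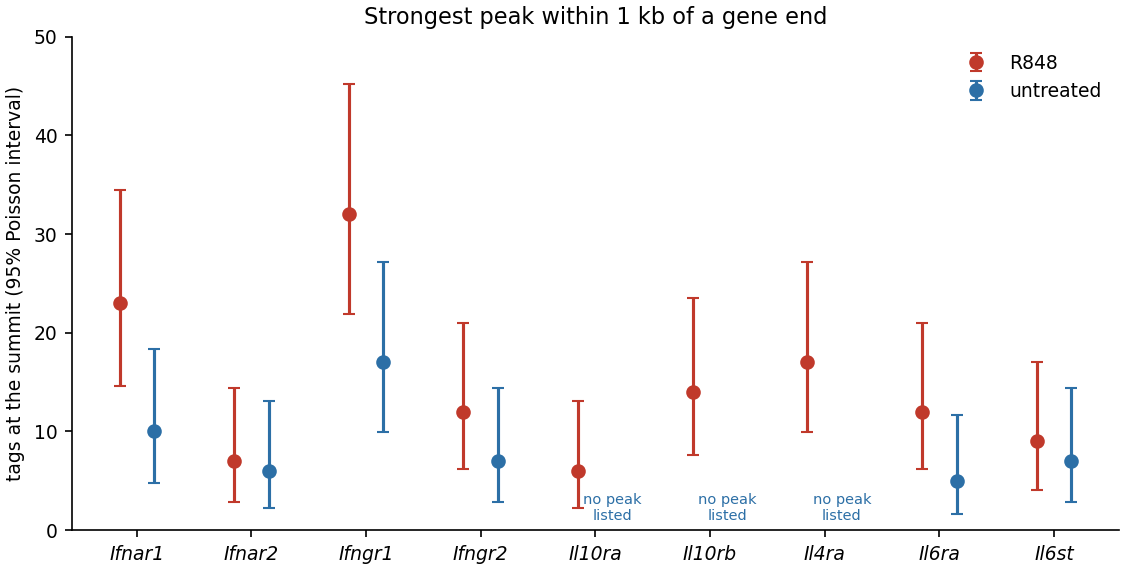
Tags at the summit of the strongest peak within 1 kb of an end of each receptor gene (y axis, 95% Poisson intervals for counting error), R848 left of untreated. Ifngr1 is highest in both libraries with 32 and 17 tags, and Il10ra, Il10rb and Il4ra have no untreated peak listed.

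These 4 genes, Ifnar2, Il10rb, Ifnar1 and Ifngr2, lie side by side within 191 kb of chromosome 16 with no other protein-coding gene between them. Together they had 18 of the 36 R848 peaks and 13 of the 27 untreated peaks. Within the cluster, 9 R848 peaks were R848-only and 9 were shared, and 5 of the R848-only peaks belonged to Il10rb. Nearest-end assignment divides the cluster by distance alone. When every peak inside a gene or within 50 kb counted, so that one peak could serve several genes, the R848-only counts were 8 for Il10rb, 7 for Ifnar2, 3 for Ifnar1 and 2 for Ifngr2. By that count Il10rb, which has no shared peak by nearest end, also had 3 R848 peaks present in both lists and 3 untreated-only peaks.

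**Figure D4:**
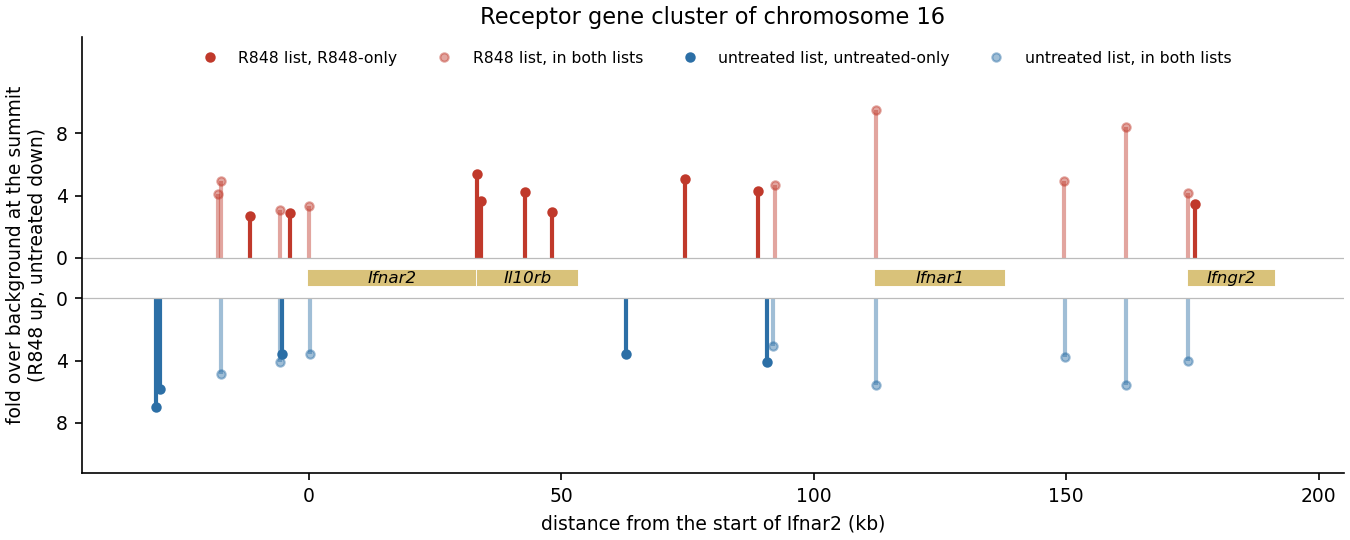
Map of the chromosome 16 cluster, with the distance from the start of Ifnar2 in kb on the x axis and the deposited fold at each summit on the y axis, R848 peaks above and untreated peaks below. Il10rb carries dark R848-only peaks at its start and inside it, whereas the starts of Ifnar1, Ifnar2 and Ifngr2 have pale peaks in both lists.

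Il6ra encodes the interleukin-6-binding chain and Il6st encodes gp130, the signalling chain shared by the receptors for interleukin-6, interleukin-11, LIF and oncostatin M. Il6st had 4 R848 and 5 untreated peaks, and 3 of each were shared. The shared sites held 9 R848 and 7 untreated tags at the start of the gene, 10 R848 and 6 untreated tags 24.1 kb before it, and 9 R848 and 6 untreated tags 32.9 kb before it. Their relative tag ratios were 0.964, 1.25 and 1.13. The other peaks of Il6st were an R848-only peak of 8 tags, 31958 bp before the gene and 545 bp from the nearest untreated peak, and 2 untreated-only peaks of 6 tags each. All but 1 of the R848 sites of Il6st thus had an untreated counterpart, at low tag numbers. With both lists held to a −log10 q of 2 or more, 1 of its R848 peaks was shared and 2 were R848-only. With the untreated list reduced to the length of the R848 list, 1 was shared and 3 were R848-only.

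Il6ra had 3 R848 peaks and 1 untreated peak. At its start the R848 peak (chromosome 3, 89913146 to 89913407) held 12 tags with a fold of 4.92, and the untreated peak (89913035 to 89913234) held 5 tags with a fold of 3.05 and a q of 0.16. The summits were 190 bp apart, on either side of the start of transcription, and the peaks no longer counted as shared when 50% of either had to be covered. The relative tag ratio of 1.80 (0.590 to 6.52) was the highest of the shared sites and its interval was wide. Another R848 peak, of 6 tags, lay 772 bp into the gene and 304 bp from the nearest untreated peak. A further one, of 7 tags, lay 9186 bp from the far end, where the non-coding gene Gm46811 overlaps Il6ra. Both were R848-only and had a q above 0.05, but the first counted as shared when a gap of up to 500 bp was allowed.

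Over the 14 member R848 peaks present in both lists, tags were higher in the R848 library at 13, against 62.9% of all shared peaks. That library had 1.33 times the tags at the median shared peak, and relative to this the ratio was above 1 at 11 of 14, against 48.0% of all shared peaks, with a median of 1.35 and a range of 0.750 to 1.80. A relative ratio of at least 1.5 was found at 4 of 14, against 25% of all 11690 shared R848 peaks, so the share lay near the background. A ratio of at most 1/1.5 was found at 0 of 14, against 28.5%. The interval of every one of the 14 ratios included 1. The deposited fold was higher in the R848 list at 11 of 14 sites, against 58.0% of all shared peaks.

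**Figure D5:**
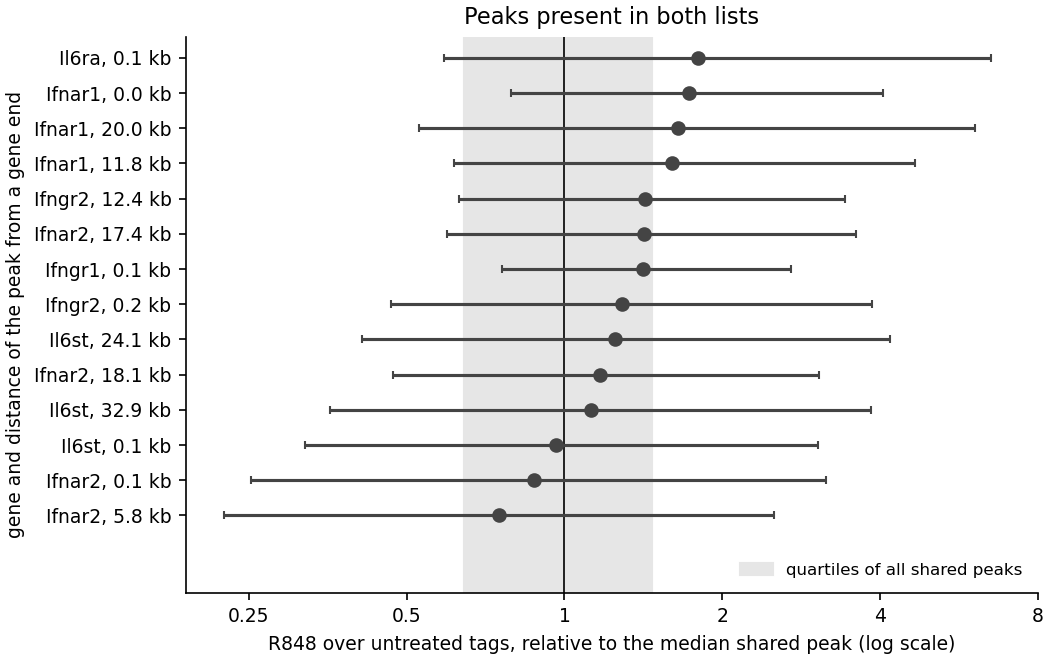
R848 over untreated tags at the 14 member peaks present in both lists, relative to the median shared peak (x axis, log scale), with exact 95% intervals for counting error; rows give the gene and the distance of the peak from a gene end, and the grey band spans the quartiles of all shared peaks. Points run between 0.750 at Ifnar2 and 1.80 at Il6ra, and every interval includes 1.

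The depth of the untreated library also bears on the 22 R848-only peaks. Scaled by the median shared ratio, 7 of the 22 would have held fewer than 5 tags in the untreated library, near the limit of calling. Only 4 would have held 8 tags or more. These were the start peaks of Il4ra and Il10rb, the Il4ra peak 3268 bp into the gene and the Il10rb peak 21470 bp beyond it.

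Of the other class I and class II cytokine receptor genes, 37 were examined for the same counts. They had 45 R848 peaks, 28 of them R848-only (62.2%, against 69% of all R848 peaks). Of their 111 untreated peaks, 94 were untreated-only, against 84.7% of all untreated peaks. A gene-end peak was found at 7 of 37 in the R848 list and at 4 of 37 in the untreated list. Over all protein-coding genes the shares were 33.8% and 26.7%. The medians of these 37 genes were 0 R848-only peaks and 2 untreated-only peaks per gene. R848-only peaks were found at 15 of 37 genes, against 47.2% of all protein-coding genes. Ranked by R848-only peaks, the leading 5 were Il20rb with 5, Ghr, Il21r and Il15ra with 3 each and Osmr with 2. Csf2rb2 and Cntfr also had 2, with a lower summed fold of those peaks than Osmr. Il15ra, which encodes the interleukin-15-binding chain, had no untreated peak, and its R848 peaks held 6 to 7 tags with a q of at least 0.10. The growth hormone receptor gene Ghr had an R848-only peak of 10 tags 83 bp from a gene end beside 6 untreated-only peaks, and Osmr, which encodes the oncostatin M chain that pairs with gp130, had 7 untreated-only peaks.

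Among 20 genes that signal downstream of these receptors or limit that signalling, R848-only peaks were found at 16 and shared peaks at 13. Over all protein-coding genes, 47.2% had an R848-only peak and 34.4% an R848 peak in both lists. The 20 genes had 44 R848 peaks, 24 of them R848-only (54.5%, against 69% of all R848 peaks). Of their 45 untreated peaks, 26 were untreated-only, against 84.7% of all untreated peaks. In this list the medians were 1 R848-only peak and 1 untreated-only peak per gene. Socs3, a feedback inhibitor that binds gp130, had 3 R848-only peaks, and Cish, another feedback inhibitor, had 3. The kinase genes Tyk2 and Jak3 had 1 peak in each list, which overlapped, and Jak1, a kinase used by the receptors of all 9 subunits, had 6 R848 and 7 untreated peaks with 5 of the R848 peaks shared.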

How the data were processed

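ATAC-seq of 2 mouse BMDM libraries was analysed, 1 per group. Per the labels' protocols, DNA was tagmented with a commercial kit and amplified for 15 PCR cycles. Per the submitters' processing notes, bcl2fastq 2.19, Bowtie2 2.2.6 and MACS2 2.2.7.1 were used on mm10. Settings, read filters and read totals: not given in the sources used here. Lists deposited by the authors, 1 per library, give the fold over background, −log10 p and −log10 q at each summit and a score, which was not used. Every deposited p was under 0.01.

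Tags (pileup) were solved from fold and p, to within 0.1% of the given −log10 p for 99.9% of peaks. Peaks sharing at least 1 bp counted as present in both lists. Gene spans were those of the 21887 protein-coding genes of RefSeq GRCm38.p6, the assembly behind mm10, without exons; motifs were searched in its promoter table. Analysis ran in Python 3.11.15 (scipy 1.17.1, pandas 2.3.3, numpy 2.4.6; plots with matplotlib 3.10.9), and its steps were tested on made-up peaks.

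The members, gene lists and motifs were chosen with earlier results of these data known. All 9 members were named, with their strongest and nearest peaks, and the 5 other receptor genes with the most R848-only peaks, ties broken by the summed fold of those peaks. Groups came from the treatment label. No p-value was computed. Alternatives were 2 stricter q limits, 2 overlap rules, 2 assignment rules and lists of equal length.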

Additional observations from a re-analysis of the deposited data

How the results depend on the processing

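The count of 22 R848-only peaks at the 9 genes became 11 when both lists were held to a −log10 q of 2 or more, and 6 when held to 5 or more. Of these, 6 of the 11 and 2 of the 6 were R848-only without the limit, and the other 5 and 4 had been present in both lists and lost their untreated counterpart to the limit. The 14 untreated-only peaks became 6 and 2. Of the 14 R848 peaks in both lists, 12 and 5 passed the limits and 7 and 1 were still in both. With gene ends within 20 kb the untreated-only peaks numbered 6. With the untreated list reduced to the length of the R848 list the untreated-only peaks numbered 6 and the shared R848 peaks 9. The share of untreated peaks overlapped, 48.1%, ran between 33.3 and 62.5% over the 7 alternatives, and the R848-only count ran between 16 and 29 over the 5 alternatives without a q limit. Of 189 counts for single genes under these alternatives, 119 stayed within 1.5 times the value given and 70 did not, 48 lower and 22 higher. At the stricter limit Il4ra and Il10rb kept 1 R848-only peak each. No paired analysis was possible because each group has 1 library.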

Other observations

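A strong peak present in both lists, singled out after its values were seen, lay 2502 bp from an end of Il31ra, which encodes an interleukin-31 receptor chain related to gp130, and 71370 bp from Il6st. It held 96 tags at 26.6-fold in R848 cells and 70 tags at 23.4-fold in untreated cells, and the R848 peak spanned 112578054 to 112578425 on chromosome 13.

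Of 11 genes for ligands of these receptors and related cytokines, 6 had an R848-only peak and 7 an untreated-only peak. Over all protein-coding genes the shares were 47.2% and 56.9%. The ligand genes had 12 R848 peaks, 9 of them R848-only (75%, against 69% of all R848 peaks). Of their 22 untreated peaks, 19 were untreated-only, against 84.7% of all untreated peaks. So these counts lay near the shares over all peaks and genes. Lif, which encodes a ligand of the gp130 family, had 2 R848-only peaks and no untreated peak. The Lif peaks held 6 and 10 tags, 1 of them had a q under 0.05, and neither lay within 1 kb of a gene end. Il6, the ligand gene for Il6ra and Il6st, had no R848 peak. Its 5 untreated-only peaks held 5 to 7 tags, and 2 of them had a q under 0.05. Ifng, the interferon-gamma gene, had 2 R848-only and 5 untreated-only peaks. Il4, Il13 and Il11 had no peak in either list.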
